A study of Mus musculus with 6 samples.

Results

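The genes described here are Ighm, the B cell genes Cd79a, Cd79b and Ms4a1, and the MHC class II genes Cd74, H2-Aa, H2-Ab1, H2-Eb1 and Ciita. They are 9 of the 52997 gene symbols in the deposited count table, and all 9 were found there. They were chosen by name with earlier results of the same infant against adult comparison in view, so their values in it are given as a description and without a test. The question was whether Ighm goes with other B cell genes in the sorted cells.

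The libraries came from CD4+ T cells of pooled lymph nodes, described by the series as naive. The adult group was 3 mice aged 7 weeks and the infant group 3 mice aged 10 days. All were Foxp3-GFP mice on the C57BL/6 background, in which cells that express the regulatory T cell factor Foxp3 carry a green reporter, and 1 mouse gave 1 library of 1000 cells passed through the sorter in 2 rounds. The titles call the cells Tconv, and the sources used here do not name the gate's markers.

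Ighm encodes the constant region of the mu heavy chain of IgM. In a B cell a V, a D and a J segment are joined upstream of it, the heavy chain pairs with a kappa or lambda light chain, and the complex signals through Cd79a and Cd79b. The heavy chain locus is also transcribed without a joined V segment, which gives sterile transcripts that hold the constant exons. MHC class II molecules present peptides to CD4+ T cells. Their alpha and beta chains assemble with the invariant chain Cd74, and the transactivator Ciita drives their genes together in B cells, dendritic cells and macrophages, whereas resting mouse T cells are generally taken to lack them.

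The libraries held 3421253 to 4887371 counts each. In them 3 counts, taken as the floor, were worth 0.628 to 0.852 CPM (counts scaled to a common library size by TMM factors), for counting error only. Adult replicate 2 stood apart: 36373 genes had a count there, and 17992 to 21840 in each of the others. Over 10996 autosomal coding genes too low to test it held 1.85 counts per kb of exon, against 0.186 to 0.349 in the others. Some low values below are set against that density. The others, above all those of adult replicate 2, were not corrected for it. All 18 genes of a T cell identity list were tested and 0 passed in edgeR, with 4 at an unadjusted p under 0.05 and 2 called by DESeq2. The kinase gene Lck and the transcription factor gene Tcf7, its 2 genes of highest CPM, had log2 fold changes (infant over adult, with SE) of 0.02 ± 0.09 and 0.13 ± 0.09. Over all 11681 tested genes 2018 had an unadjusted p under 0.05 in edgeR and 622 were called by DESeq2. Such counts here and below stand beside that background.

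Sequences of the heavy chain locus show what the counts refer to. Ighm lies on the minus strand of chromosome 12 (113418558 to 113422730, mm10) and has 2 annotated models, 1 with a membrane end in exons 5 and 6 and 1 with a secreted end. The table counts them together, so the forms cannot be told apart. The first line is the start of exon 1 (chr12:113422611-113422730), to which upstream exons are spliced, and the second is the whole of exon 5 (chr12:113418953-113419068), which belongs to the membrane form. The next 4 lines are the J segments, with the shared letters TGGGG in capitals, which begin the conserved tryptophan and glycine codons. They lie at chr12:113429781-113429833, chr12:113429468-113429515, chr12:113429085-113429132 and chr12:113428514-113428567.
Ighm exon 1: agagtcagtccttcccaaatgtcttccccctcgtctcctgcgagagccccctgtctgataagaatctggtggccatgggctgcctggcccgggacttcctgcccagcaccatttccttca
Ighm exon 5: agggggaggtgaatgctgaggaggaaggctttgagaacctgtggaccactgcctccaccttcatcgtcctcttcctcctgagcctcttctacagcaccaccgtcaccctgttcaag
Ighj1: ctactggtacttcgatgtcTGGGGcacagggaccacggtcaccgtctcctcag
Ighj2: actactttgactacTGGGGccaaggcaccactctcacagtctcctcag
Ighj3: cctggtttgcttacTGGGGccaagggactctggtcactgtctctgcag
Ighj4: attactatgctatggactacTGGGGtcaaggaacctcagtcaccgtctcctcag
All are transcript sequences of GENCODE M21 (GRCm38, the build of mm10), read on the minus strand. No exon of Ighm overlaps another annotated gene.

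Ighm was an abundant RNA of the sorted cells at both ages. Its raw counts were 3392, 2436 and 3720 in adult replicates 1, 2 and 3 and 3292, 2750 and 3282 in infant replicates 1, 2 and 3. These are levels of 822, 692 and 795 CPM in adult and 689, 665 and 793 CPM in infant libraries. The groups overlapped, and adult replicate 2 and infant replicate 2 had the lowest level of their age. The means were 769.7 ± 68.6 CPM (SD, n = 3) for the adults and 716 ± 67.7 for the infants, a log2 fold change (infant over adult, from the edgeR fit) of −0.11 ± 0.11 (SE). By CPM, which does not take gene length into account, Ighm ranked between 112 and 144 among all genes of a library.

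Per kb of exon the level of Ighm lay between those of T cell genes. It was 1.51 to 1.98 times that of Cd4, the coreceptor that defines these cells, in the 6 libraries. Against Trbc2, a constant region of the T cell receptor beta chain, the ratio per kb was 0.392 to 0.428. That ratio moved little from library to library, and Trbc2 stood at rank 6 of all other tested genes in likeness to Ighm. The measure was the root mean square difference between the mean-centred log2 CPM values of a gene and of Ighm over the 6 libraries. For Trbc2 it was 0.047. The other beta constant gene, Trbc1, stood at rank 316 (0.10) and the alpha constant gene Trac at rank 668 (0.12).

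The 5 genes whose pattern over the 6 libraries was most like that of Ighm by this measure were Imp3, Il2rg, Ttpal, Dnajb6 and Kat8, with differences of 0.035, 0.036, 0.040, 0.046 and 0.047. Il2rg, the cytokine receptor chain shared by receptors of interleukins 2 and 7, was at 732, 626 and 764 CPM in the adult group and 625, 615 and 736 CPM in the infant group. Like Ighm it was lower in adult replicate 2 and infant replicates 1 and 2 than in the other 3 libraries. Cd79a stood at rank 403 with a difference of 0.11, Ciita at rank 10795 with 0.75 and Cd74 at rank 11450 with 1.15, among the 11681 genes tested. Counts of Cd79a are small enough that its rank carries counting error. T cell genes stood on both sides of Cd79a. Trbc2 at rank 6 and Lck at rank 324 were closer to Ighm, and Cd3d at 468, Cd4 at 678 and Cd3e at 1404 were less close. The measure also weighs the size of swings, so these ranks do not tell whether Cd79a and Ighm rise and fall together. Both were highest in adult replicate 1, with mean-centred log2 CPM of 0.19 for Cd79a and 0.15 for Ighm. Both were lowest in infant replicate 2 (−0.33 and −0.15). Their signs were opposite in adult replicate 2 (0.07 and −0.10). Whether the genes go together was not tested.

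RNA of the other parts of a B cell receptor was at or near 0 in the same libraries. The 4 light chain constant genes Igkc, Iglc1, Iglc2 and Iglc3 had 5 counts in all 6 libraries together, beside 18872 counts of Ighm. By library these were 0, 3 and 0 counts in adult and 0, 1 and 1 in infant replicates. Per kb of exon this is at most 1.46 counts for the light chain genes, in adult replicate 2, whereas Ighm had 1292 to 1972 counts per kb.

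V segments were not found in step with Ighm either. The 183 Ighv segments had 9, 228 and 11 counts in adult and 7, 4 and 25 in infant libraries. The 228 counts of adult replicate 2 were spread over 98 segments with at most 9 on any of them, a density of 3.54 counts per kb, where Ighm itself was not raised. The 2 segments of highest mean, Ighv1-82 and Ighv14-4, had counts in adult replicate 2 alone. The 160 Igkv segments showed the same picture, with 141 counts over 75 segments in adult replicate 2 and 1 to 13 counts in the others. Many segments resemble each other closely, and the sources used here do not say how a 25-base read that fits more than 1 was counted. Of all 380 immunoglobulin segments listed, 206 had a count, 331 had none outside adult replicate 2 and 0 passed the filter on low counts.

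D and J segments of the heavy chain locus gave a few counts, mostly in infant cells. The 20 D and 4 J segments summed to 1, 1 and 0 counts in adult and 10, 7 and 6 in infant libraries. The groups did not overlap (exact permutation test of counts over library totals, two-sided p = 0.1, the smallest that 3 against 3 allows). The J segments, printed above, had 0 counts in every adult library and 5, 1 and 2 in the infant libraries, 5 of the 8 on Ighj2. The D segment with most counts was Ighd5-8 with 5, all of them in infant replicates 2 and 3. This sum was singled out after its values were seen, so the p-value describes the split and does not test it. Each library holds at most 10 of these counts.

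Other constant genes of the heavy chain locus were low. Ighd, which encodes the delta constant region of IgD and lies 2233 bases downstream of Ighm, had 27, 5 and 6 counts in adult and 35, 12 and 13 in infant libraries. Its log2 fold change was 0.54 ± 0.67 (edgeR adjusted p = 0.752) and the groups overlapped. It was the only 1 of 11 constant genes in the list to be tested, so 0 of 1 passed, with 0 at an unadjusted p under 0.05 and 0 called by DESeq2. Igha, the alpha constant region and next highest, had 11 counts in adult replicate 2 and 1 in infant replicate 3. Of the 11 genes 5 had no count outside adult replicate 2.

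**Figure D1:**
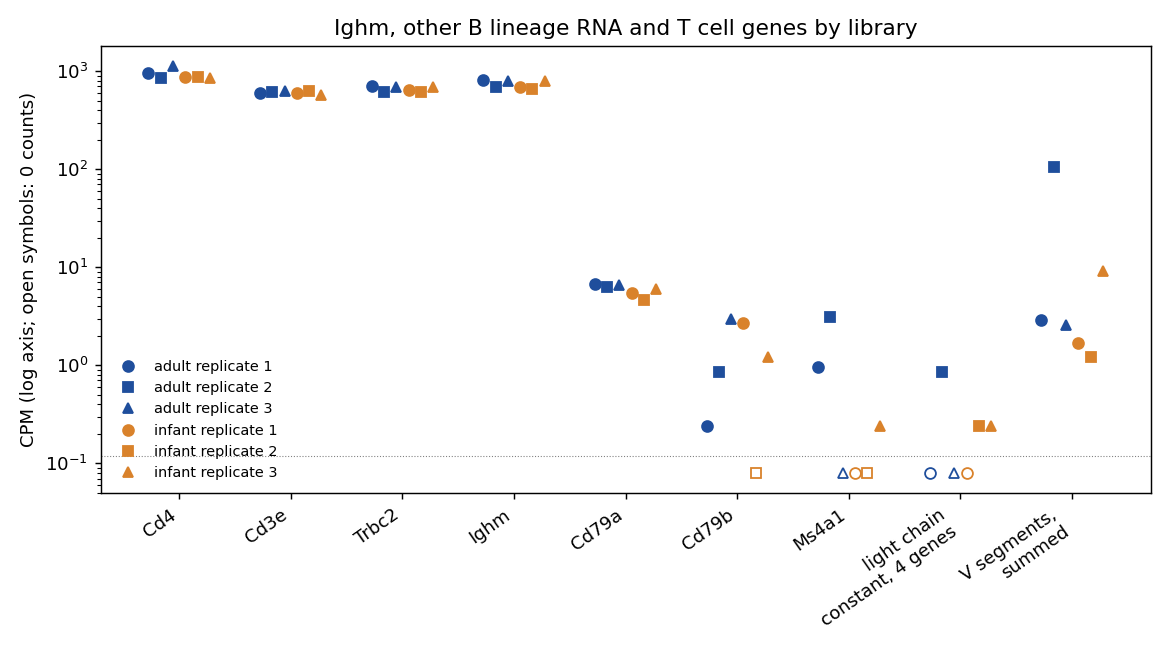
Levels (CPM, log axis) of T cell genes, Ighm, other B lineage genes, the sum of 4 light chain constant genes and the sum of all V segments in each of the 6 libraries, with adult in blue, infant in orange and open symbols for 0 counts. Ighm sits at 665 to 822 CPM, Cd79a at 4.60 to 6.79 CPM, and the V segments are highest in adult replicate 2.

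Cd79a, the signalling chain Ig-alpha of the B cell receptor (chromosome 7, 24897381 to 24902197), was low but even. It had 28, 22 and 31 counts in adult and 26, 19 and 25 in infant libraries, or 6.79, 6.25 and 6.62 CPM against 5.44, 4.60 and 6.04. The highest infant level lay just below the lowest adult level. The difference was small beside its error, with a log2 fold change of −0.29 ± 0.40. Counts per kb of exon were 13.0 to 21.3, above the density of untested genes in every library. The level of Ighm per kb was 85.5 to 112 times that of Cd79a. On the same strand the gene Arhgef1 begins 714 bases downstream of Cd79a and had 21379 counts in the 6 libraries. Its part in the counts of Cd79a was not tested.

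Cd79b, the partner chain Ig-beta (chromosome 11, 106311341 to 106314762), was uneven at both ages. It had 1, 3 and 14 counts in adult and 13, 0 and 5 in infant libraries. Infant replicate 2 had none, and adult replicate 3 and infant replicate 1 had most. Cd79a in those libraries was not correspondingly high, at 6.62 and 5.44 CPM.

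Ms4a1, which encodes the B cell surface protein CD20 (chromosome 19, 11249675 to 11266241), was close to absent. Its counts were 4, 11 and 0 in adult and 0, 0 and 1 in infant libraries. The 11 counts of adult replicate 2 were about what the density of untested genes in that library gives over its 6187 bases of exon, 11.5 counts.

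Other B lineage genes, from a list of 20 surface, signalling and transcription factor genes, were mostly silent. Of the 20, 19 had a count, 5 had none outside adult replicate 2 and 5 were tested. In edgeR 1 of the 5 fell, 0 rose and 4 did not pass (median log2 fold change 0.019, against −0.0017 over all tested genes). Over all 11681 tested genes 425 (3.64%) were called, 178 (1.52%) higher and 247 (2.11%) lower in infant cells.

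The gene that fell was Cd72, a lectin-like coreceptor known as an inhibitor of B cell receptor signals. Its levels were 26.9, 23.3 and 20.3 CPM in the adult group and 8.58, 13.1 and 7.00 CPM in the infant group, so every infant value lay below every adult value. Its log2 fold change was −1.30 ± 0.28 (edgeR adjusted p = 0.0204). Leaving out adult replicate 1, infant replicate 1 or infant replicate 3 ended the call (adjusted p = 0.101, 0.0914 and 0.0939).

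The other 4 tested genes of that list did not pass. Ralgps2, a guanine nucleotide exchange factor gene, had the highest level, 85.4 ± 4.83 CPM in adult and 86.6 ± 2.96 in infant libraries. Pou2af1, a coactivator of immunoglobulin promoters, had a log2 fold change of 0.12 ± 0.41. Cr2, the complement receptor of B cells, was at 0.14 ± 0.49, and Fcrl1, an Fc receptor-like gene, at −0.33 ± 0.58.

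Defining B cell markers were at or near 0 for the most part. The inhibitory receptor gene Cd22 and the kinase gene Blk had counts in adult replicate 2 alone (3 and 4). Of 11 defining markers (Cd22, Cr2, Fcer2a, Cd72, Pax5, Ebf1, Blk, Blnk, Bank1, Igkc and Ighd), 6, 0 and 6 were at 0 in adult and 6, 4 and 4 in infant replicates. The summed level of the 11 was 38.8, 52.8 and 29.3 CPM for the adults and 24.7, 23.7 and 21.3 for the infants. Most of these counts came from Cd72, Cr2 and Ighd, with 69 to 148 of 88 to 186 counts per library. Adult replicate 2 was highest in this sum, while its level of Ighm was below those of the other adult libraries. The sum was not corrected for the density over untested genes, which was highest in that library (1.85 counts per kb).

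Lists of earlier and later B lineage stages added little. Of 6 genes of pre-B cells and recombination only Dntt, the polymerase that adds untemplated nucleotides, was tested, and it fell by 1.88 ± 0.31 on the log2 scale (edgeR adjusted p = 0.00363), so 1 of 1 fell. This fall, seen in sorted CD4+ T cells, is not read as a B lineage result. Rag1 and Rag2, which cut the segments to be joined, had counts in adult replicate 2 alone (14 and 3). Of 7 plasma cell genes 2 were tested and 0 passed in edgeR, with 2 at an unadjusted p under 0.05 and 0 called by DESeq2. These were Xbp1 (log2 fold change −0.495 ± 0.15) and Prdm1 (−1.09 ± 0.36), transcription factors that T cells also use. Over all 11681 tested genes 2018 had an unadjusted p under 0.05. Jchain, which links IgM units, had 3 counts in adult replicate 2, 1 in infant replicate 1 and 0 elsewhere. Of 10 signalling genes that B cells share with other blood cells 4 were tested and 0 passed in edgeR, with 0 at an unadjusted p under 0.05 and 0 called by DESeq2. Among them the phosphatase gene Ptpn6 was at −0.0042 ± 0.13 and Vav1 at 0.02 ± 0.11. Syk, the kinase that B cells use in place of Zap70, had 50 counts in adult replicate 2, 1 in infant replicate 3 and 0 in the other 4 libraries.

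The class II chain genes lie together on chromosome 17, and sequence shared by their promoters is shown for the genes whose values follow. The stretches below, from the RefSeq promoter windows (GRCm38.p6, 250 bases before to 50 after the start), hold the letters GCAAC, part of the X box, and TGATTGG, which holds the Y box as the reverse complement of CCAAT. Both are in capitals. They lie at chr17:34287857-34287914 (minus strand), chr17:34305766-34305822, chr17:34092293-34092350 and chr17:34238808-34238862 (plus strand).
H2-Aa: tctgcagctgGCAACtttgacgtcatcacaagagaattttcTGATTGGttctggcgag
H2-Eb1: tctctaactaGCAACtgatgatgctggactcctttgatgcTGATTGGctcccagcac
H2-Oa: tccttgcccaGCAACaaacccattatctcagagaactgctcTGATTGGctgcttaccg
H2-Ob: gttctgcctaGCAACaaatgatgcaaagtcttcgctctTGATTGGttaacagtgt
The letters stand 23 to 26 bases apart in these 4 genes, and H2-Eb2 has them too, 25 bases apart. On either strand GCAAC occurs in 35.2% of the 32851 windows and TGATTGG in 7.82%. The pair in this order on 1 strand, 15 to 40 bases apart, occurs in 0.256%. The motifs do not overlap, and both they and the spacing were set after these promoters had been read, so the shares describe and do not test. The windows of Cd79a, H2-DMa, H2-DMb1, H2-DMb2, Ctss, Ifi30 and Lgmn do not hold the pair. Only these exact letters were sought, so a miss does not show that a promoter lacks X and Y boxes. Ighm, Cd79b, Ms4a1, Cd74, H2-Ab1 and Ciita had no window to search. H2-Ab1 is named only.

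Class II RNA was low in 5 libraries and present in infant replicate 2. H2-Aa, the alpha chain of I-A (chromosome 17, 34282744 to 34287823), had 0, 2 and 1 counts in adult and 6, 63 and 0 in infant libraries. H2-Ab1, its beta chain (34257689 to 34269419), had 3, 7 and 3 counts in adult and 11, 52 and 0 in infant libraries. H2-Eb1, the beta chain of I-E (34305867 to 34316674), had 1, 5 and 2 counts in adult and 1, 47 and 2 in infant libraries. All 3 chains were highest in infant replicate 2. Infant replicate 1 was above every adult library for H2-Aa and H2-Ab1, by few counts, and infant replicate 3 was at 0 for both.

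Cd74, the invariant chain that occupies the peptide groove until loading, followed them. Its counts were 12, 4 and 22 in adult and 19, 73 and 8 in infant libraries, with levels of 2.91, 1.14 and 4.70 CPM against 3.98, 17.7 and 1.93. It was above the density of untested genes outside infant replicate 2 as well, at 4.76 to 13.1 counts per kb in adult replicates 1 and 3 and infant replicates 1 and 3. Its log2 fold change was 1.38 ± 0.72, but 0.0071 ± 0.80 without infant replicate 2 and −0.35 ± 0.64 without that library and adult replicate 2. The higher infant mean rested on 1 library.

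The 4 genes together had 16, 18 and 28 counts in adult and 37, 235 and 10 in infant libraries, so that infant replicate 2 held 68.3% of all counts of the 4 genes. Fewer cells of a type and less RNA per cell cannot be told apart in such bulk libraries.

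**Figure D2:**
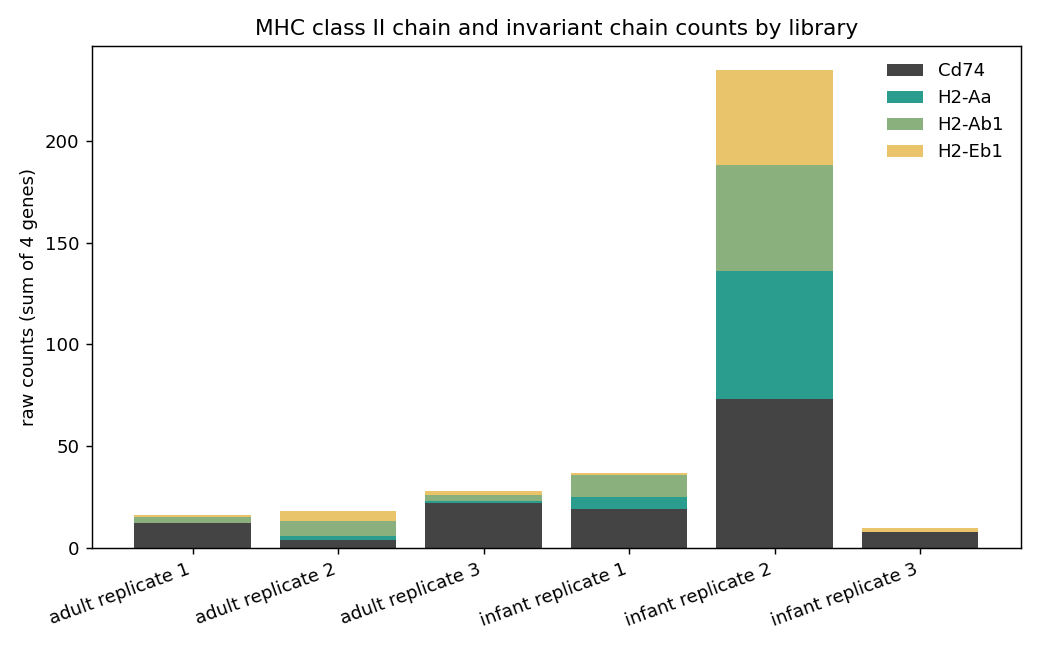
Raw counts of Cd74, H2-Aa, H2-Ab1 and H2-Eb1, stacked for each of the 6 libraries. Infant replicate 2 reaches 235 counts with a share from each of the 4 genes, and the other 5 libraries hold 10 to 37, mostly of Cd74 except in adult replicate 2.

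Infant replicate 2, the library with most class II RNA, was low in Ighm and mixed in B cell genes. It had the lowest level of Ighm (665 CPM) and of Cd79a (4.60 CPM), and 0 counts of Cd79b, Ms4a1 and Cd22. Its summed level of the 11 B cell markers, 23.7 CPM, lay within the range of the other infant libraries. Over all 20 genes of the B lineage list its sum, 121 CPM, was the highest of the infants (112 and 118 in replicates 1 and 3). The adults had 119.5, 164 and 133. Ralgps2 alone made up most of the infant sums, at 86.6 ± 2.96 CPM, so they say little about the other genes. Pou2af1 was at 12.1 CPM there and at 5.33 to 9.09 in the other 5 libraries, and Cd72 was higher there than in the other infants.

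Markers of dendritic cells and macrophages differed by the list used. The summed level of 8 defining markers (Itgax, Flt3, Zbtb46, Lyz2, Csf1r, Adgre1, Tyrobp and Fcer1g) was 15.5, 31.5 and 9.83 CPM for the adults and 19.7, 10.6 and 19.1 for the infants. In infant replicate 2 these were 44 counts, of which 35 were of Zbtb46, and Lyz2, Csf1r and Fcer1g were at 0. Over the wider list of 25 genes infant replicate 2 had 129 CPM, the highest of the infants (109.9 and 116 in replicates 1 and 3) and above adult replicates 1 and 3 (97.9 and 93.2), but below adult replicate 2 (162). Of this wider list Cst3 had the highest mean and so weighed most in the sum, at 56.3 ± 15.8 CPM in adult and 52.3 ± 10.1 in infant libraries. Among the 25 genes the integrin gene Itgam and the transcription factor gene Irf8 were highest in infant replicate 2, at 13.8 and 16.0 CPM. The other libraries had 4.70 to 11.6 and 8.24 to 12.2 CPM. The part of such cells in the class II counts was not tested. Spib, a transcription factor of B cells and plasmacytoid dendritic cells, had 9 counts in that library and 0 in the other 5. These single genes were picked after their values were seen.

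Ciita, the class II transactivator (chromosome 16, 10480059 to 10528418), did not follow the class II chains. Its counts were 9, 29 and 7 in adult and 16, 12 and 10 in infant libraries, or 2.18, 8.24 and 1.50 CPM against 3.35, 2.90 and 2.42. Infant replicate 2 was between the other infant libraries, and adult replicate 2 was highest. At the density of untested genes in adult replicate 2 the 9535 bases of exon of Ciita would hold 17.7 counts. At the densities of the other libraries they would hold 1.77 to 3.33, below the 7 to 16 counts found there. The log2 fold change was −0.42 ± 0.65, and 0.66 ± 0.64 without adult replicate 2, so its sign rested on that library. Exons of Ciita overlap those of Dexi on the other strand, and in a protocol without strand marks the reads of both genes cannot be told apart there.

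**Figure D3:**
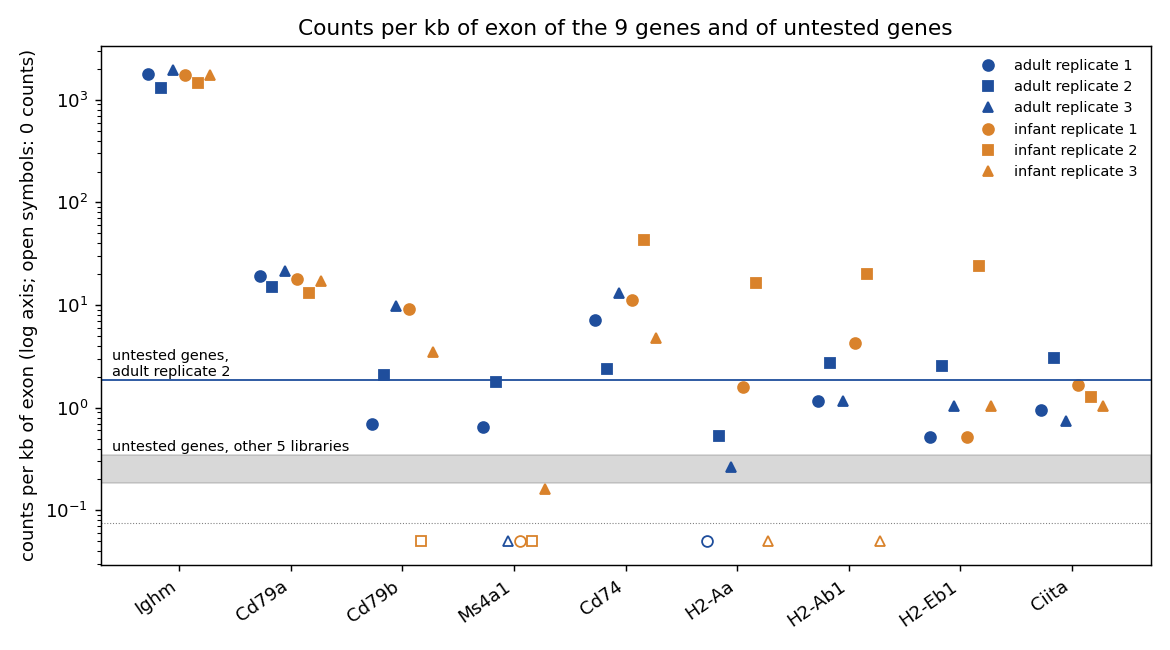
Counts per kb of exon (log axis) of the 9 genes in each library, with open symbols for 0 counts, a blue line for the density over untested genes in adult replicate 2 and a grey band for that of the other 5 libraries. Ighm lies at 1292 to 1972 counts per kb, Cd79a at 13.0 to 21.3, and the 3 class II chains at 16.6 to 24.2 in infant replicate 2, against 4.28 or less elsewhere.

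Of the 9 genes 4 passed the filter on low counts: Ighm, Cd79a, Cd74 and Ciita. In edgeR 0 of these 4 were called, against 3.64% of all tested genes, with 0 at an unadjusted p under 0.05 and 0 called by DESeq2. Over all 11681 tested genes 2018 had an unadjusted p under 0.05 and 622 were called by DESeq2. The groups did not overlap for 1 of the 4 members, Cd79a, against 22.8% of all tested genes. Nothing is read from these counts, since the comparison was in view when the genes were chosen. Cd79b, Ms4a1, H2-Aa, H2-Ab1 and H2-Eb1 did not pass it and were not in the fit.

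Genes of class II peptide loading and processing that could be tested went both ways. Of 11 listed genes 10 were in the table and 6 were tested: 2 fell, 1 rose and 3 did not pass (median log2 fold change −0.028). For 5 of the 6 the groups did not overlap, against 22.8% of all tested genes. Promoters of H2-Oa and H2-Ob, printed above, hold the same letters as those of H2-Aa and H2-Eb1.

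H2-Ob, the beta chain of the H2-O dimer that restrains peptide exchange, fell. Adult replicates stood at 104, 97.7 and 96.4 CPM and infant replicates at 60.5, 42.1 and 51.7, with no overlap. The log2 fold change was −0.95 ± 0.15 (edgeR adjusted p = 0.00281), and H2-Ob remained called under every alternative run. Its infant level was lowest in infant replicate 2, where the class II chains were highest. H2-Oa, its alpha chain partner, stood at 4.12, 9.09 and 8.55 CPM in the adult group and at 12.6, 10.2 and 20.5 in the infant group. The infant values of H2-Oa lay above the adult values, and it did not pass (log2 fold change 0.99 ± 0.38, edgeR adjusted p = 0.190).

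H2-DMa, a chain of the H2-DM dimer that catalyses peptide exchange, fell. Its mean was 52.9 ± 3.80 CPM in adult and 31.0 ± 7.89 in infant cells, and the log2 fold change −0.77 ± 0.20, with an edgeR adjusted p of 0.0492. The call lay at the threshold: it was lost without any 1 of the 6 libraries (adjusted p = 0.0625 to 0.212), with library totals (0.0531) and with the replicate block (0.0572). The beta chain H2-DMb1 had 6 counts in adult replicate 2 and 0 elsewhere, and H2-DMb2 had 2 to 11 counts in each library.

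Lgmn, an endosomal protease that cleaves the invariant chain and antigens, rose. Adult replicates stood at 23.5, 19.6 and 19.7 CPM and infant replicates at 52.3, 38.0 and 37.7. The log2 fold change was 1.03 ± 0.21, with an edgeR adjusted p of 0.0121. Leaving out adult replicate 3 or infant replicate 1 ended the call (adjusted p = 0.0581 and 0.0755). Ctss, the cathepsin that trims the invariant chain, was at 384 ± 39.6 and 307 ± 28.2 CPM and did not pass (edgeR adjusted p = 0.148). Ifi30, a thiol reductase of the endosome, had a log2 fold change of 0.27 ± 0.17.

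Factors that bind class II promoters beside Ciita were expressed at both ages. All 12 listed genes were tested and 0 passed in edgeR (median log2 fold change −0.075), with 4 at an unadjusted p under 0.05 and 1 called by DESeq2. Over all 11681 tested genes these numbers were 2018 and 622. The coactivator Crebbp was at 286 ± 6.00 and 278 ± 20.9 CPM, and the remodeller Smarca4 at 162 ± 28.3 and 191 ± 9.52. Of the RFX complex, which binds the X box, Rfxank had a log2 fold change of −0.49 ± 0.17, Rfx5 of −0.16 ± 0.41 and Rfxap of −0.11 ± 0.51. Of the NF-Y complex, which binds the Y box, Nfya was at −0.86 ± 0.24 (edgeR adjusted p = 0.0657), Nfyb at 0.20 ± 0.14 and Nfyc at 0.15 ± 0.17.

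**Figure D4:**
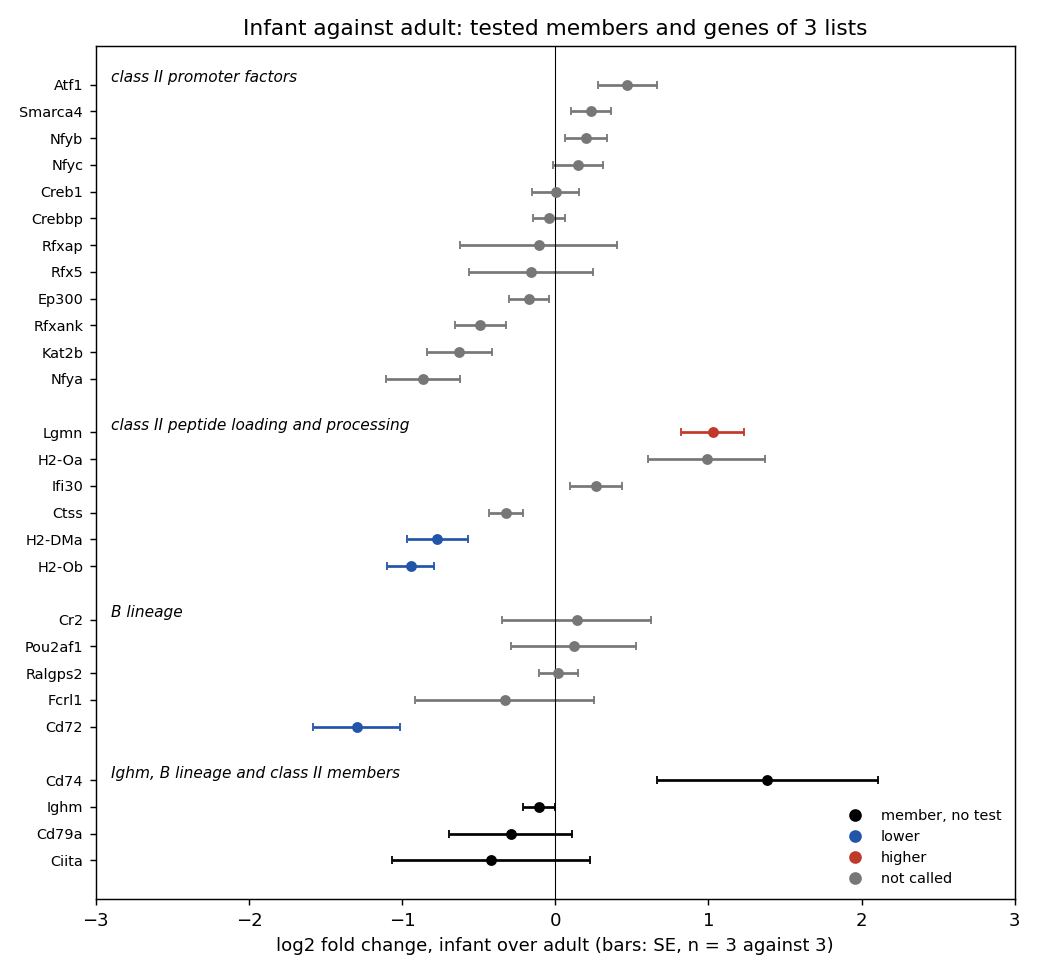
Log2 fold change of infant over adult with its SE (3 libraries against 3) for the 4 tested genes of the set (black) and for the tested genes of the B lineage list and the 2 class II lists, with blue for lower, red for higher and grey for not called. H2-Ob, H2-DMa and Cd72 lie below 0 and Lgmn above it, while Ighm lies at −0.11 and Cd74 at 1.38 with a wide error.

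Markers of other cell types were measured in the same way. Of 25 dendritic cell and macrophage genes 7 were tested, 1 rose and 0 fell. The 1 was Fcgr3, an Fc receptor of myeloid and natural killer cells (2.26 ± 0.760 to 8.12 ± 1.44 CPM, edgeR adjusted p = 0.0461). Its call was lost with library totals (0.0538), without the filter (0.0643), with the replicate block (0.0863) and without any library but adult replicate 2 (0.116 to 0.224). The summed levels of the 25 genes, given above by library, overlapped between adult and infant libraries (two-sided p = 1, exact permutation test).

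Of 8 genes of CD8 T and natural killer cells 3 were tested and 2 fell, Prf1 (log2 fold change −1.86 ± 0.19) and Klrd1 (−1.33 ± 0.31). Prf1 was called under every alternative, and Klrd1 was lost without any library but adult replicate 3 and with the replicate block (adjusted p = 0.0550 to 0.138). Of 13 endothelial and stromal genes 2 were tested, Pecam1 (0.12 ± 0.11) and Epcam (0.56 ± 0.47), and of 6 erythroid genes 1, Alas2 (0.81 ± 0.48). None of these 3 passed in edgeR or DESeq2, and 0 had an unadjusted p under 0.05. Hbb-bs, a haemoglobin gene, had 0 or 1 counts in each library.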

How the data were processed

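Raw counts per gene symbol were deposited by the authors for 6 libraries, 1 per mouse. The submitters' processing notes name STAR 2.5.4, featureCounts and the mm10 build. For the featureCounts version, the annotation and reads that fit more than 1 place, the sources used here give nothing. The protocol, with paired reads of 25 bases, marks neither strand nor single molecules, and the floors cover counting error only.

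All genes were fitted with edgeR 4.0.16 (R 4.3.3, quasi-likelihood F test, filterByExpr with minimum count 10, TMM factors, Benjamini-Hochberg threshold 0.05, no covariate). SE is the absolute log2 fold change over the square root of F. P-values and SE rest on the spread between these libraries, 1 per mouse, so differences between mice and between library preparations cannot be told apart. DESeq2 1.42.0 was an alternative. Exon lengths and positions came from GENCODE M21, which held 49439 of the symbols. On simulated counts for the 11681 genes the edgeR fit found 62.5% of the 2-fold changes and 86.7% of the 4-fold ones, with 3 false calls.

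The members and the 13 other gene lists were chosen with earlier results of these data known. In each list the up to 4 called genes of smallest p were named, or, with 0 called, the 2 of highest CPM. Other genes were singled out after their values were seen. Likeness to Ighm used log2 CPM with a prior count of 2. One B cell marker is not reported here and was left out of the lists and sums.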

Additional observations from a re-analysis of the deposited data

How the results depend on the processing

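The log2 fold change of Ighm stayed below 0 under every alternative run, from −0.19 (without infant replicate 3) to −0.05 (without adult replicate 1 or infant replicate 2) with a library left out. With all libraries 425 genes were called. With a library left out the totals were 139 to 488, fewest without infant replicate 2, and 185, 208, 176 and 189 without adult replicate 1, adult replicate 3, infant replicate 1 and infant replicate 3. By list, leaving out a library gave 0 to 1 called gene for B lineage, 1 to 2 for class II loading, 0 to 1 for class II factors and for dendritic cells and macrophages, 1 to 2 for CD8 T and natural killer genes, and 0 to 2 for T cell identity. Without both adult replicate 2 and infant replicate 2, an alternative chosen after seeing the data, 230 genes were called, with 0 for pre-B genes and dendritic cells and macrophages, and 1 for class II loading, for CD8 T and natural killer genes and for T cell identity. Without the filter, the lists of shared receptor signalling and of class II factors had 1 call and dendritic cells and macrophages 0. DESeq2 called 622 genes, 1 of them a class II factor and 2 of T cell identity. Library totals gave 0 for dendritic cells and macrophages and 2 for T cell identity. Why these counts moved was not tested. With the replicate number as a block, 326 genes were called, 0 for dendritic cells and macrophages and 1 for CD8 T and natural killer genes. Ighm was then at −0.11 ± 0.09 and Cd74 at 0.92 ± 0.86. Each library is another mouse, and same-numbered libraries did not deviate together (r of −0.047, −0.011 and −0.092 across genes). The main fit therefore did not treat the numbers as pairs, and whether same-numbered libraries shared a batch was not tested. Depth limits Cd79b, Ms4a1 and the class II chains. Without the filter their log2 fold changes were −0.04 ± 1.36, −3.58 ± 2.28, 4.36 ± 1.05 (H2-Aa), 2.20 ± 0.87 (H2-Ab1) and 2.58 ± 1.05 (H2-Eb1), where the chains rest mostly on infant replicate 2. Cd79b also passed the filter without adult replicate 1 or 2 or infant replicate 2 or 3, at −0.55 to 0.50.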
